A study of Mus musculus with 15 samples.

Results

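The Spi1 locus, a 70 kb window of mouse chromosome 2 (90900000 to 90970000, build mm9), was examined for binding of PU.1, the protein that Spi1 encodes. Its members were all peaks of the 5 deposited lists that overlapped the window, which was placed around the gene and not by any measured value. They numbered 21 of the 167152 peaks in all lists: 9 and 5 in control replicates 1 and 2, 5 and 2 in shPU.1 replicates 1 and 2, and 0 in the in vitro list. Distances are from position 90936000, a rounded position near the Spi1 promoter, and the upstream element is taken as about 14 kb before it. These markers are approximate, since no mm9 annotation was used. By the gene order of RefSeq on GRCm38, Slc39a13 and the long non-coding RNA Gm39874 come before Spi1 and Mybpc3 comes after it, so a peak in the window need not act on Spi1.

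PU.1 is a transcription factor of the ETS family that binds purine-rich DNA with a GGAA core. It is required for macrophages and other myeloid cells and for B cells. Spi1 is known for autoregulation: PU.1 binds the promoter of its own gene and an upstream regulatory element, an enhancer that is needed for full Spi1 transcription in myeloid cells. At this locus, PU.1 occupancy under a hairpin against PU.1 is thus measured on the gene that the hairpin targets.

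The cells were primary bone marrow-derived macrophages of C57BL/6 mice on day 7 of differentiation. Cells of both groups were infected with an inducible retroviral vector, selected with puromycin (3 µg/ml, from day 3) and given doxycycline (0.5 µg/ml for 48 hours, from day 5). The vector carried a hairpin against Pu.1 (shPU.1, n = 2 libraries) or one against Renilla luciferase (control, titled empty in the labels, n = 2 libraries), so infection and doxycycline were common to both. A single hairpin was used, and the labels do not say whether replicates came from separate mice or cultures. The in vitro list came from nucleosomes assembled on purified macrophage DNA with recombinant histones. These were incubated with macrophage nuclear extract depleted with normal IgG, and an extract depleted of PU.1 served as the control. The 9 nuclease digestion samples of the series were not analysed here.

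Peak lists hold no read counts, so the depth of every library is unknown. The lists ran from 15122 peaks (shPU.1 replicate 1) to 36759 (control replicate 2) in the macrophages, and the in vitro list had 57512. Median peak width was 435 and 448 bp in the number 1 lists and 892 and 1076 bp in the number 2 lists, and number 2 lists join some sites that number 1 lists separate. The lists do not measure Spi1 transcript or PU.1 protein, and the strength of the knockdown at the gene it targets could not be read from them. Each score is the authors' own value for a peak and is compared only within its list, as a percentile where 100 is the highest.

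PU.1 peaks lay at 6 places in the window, and 2 of these, both upstream of the promoter, had a peak in all 4 macrophage libraries. Joining peaks that shared at least 1 bp gave regions centred at -25.2, -12.1, -6.6, +2.1, +10.7 and +17.4 kb. The regions at -25.2 and -12.1 kb ranked in the top 1% of control regions. The region just downstream of the nominal promoter position, called the promoter region here, had a peak in both control libraries and in neither shPU.1 library. No region held an in vitro peak. The map of peaks by list shows this layout.

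**Figure D1:**
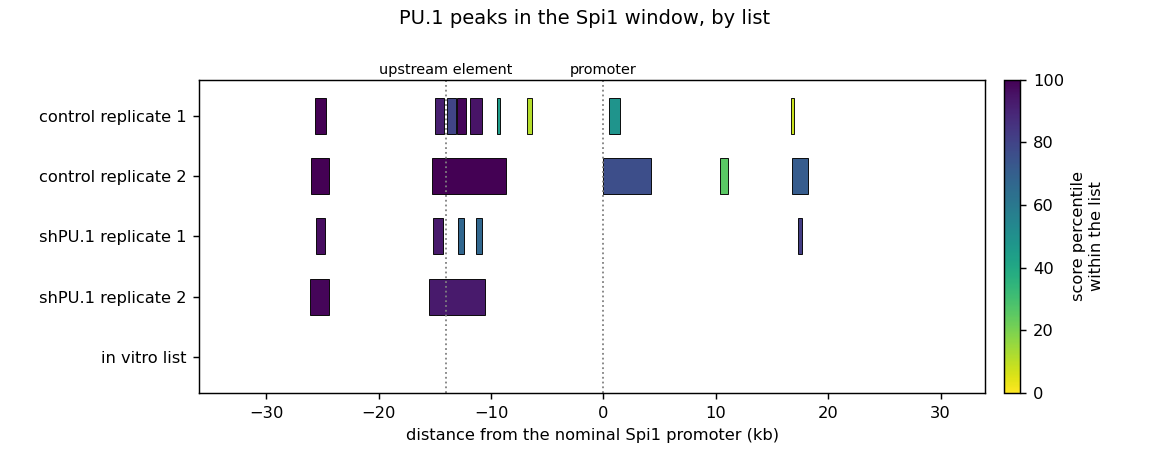
PU.1 peaks in the Spi1 window by list. The x axis is the distance in kb from the nominal promoter, each bar is a peak drawn to its width, and colour gives the score percentile within its list. Both shPU.1 lists have peaks at -25.2 kb and around the upstream element and none in the promoter region. In addition, shPU.1 replicate 1 has a peak at +17.5 kb, and the in vitro row is empty.

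The region at -25.2 kb (chromosome 2, 90909938 to 90911648) was the highest or second highest of the window in every macrophage list. Its score was 1605 in control replicate 1, rank 35 of 30026, and 2316 in control replicate 2, rank 42 of 36759. Under the hairpin it scored 325 in replicate 1, rank 487 of 15122, and 1507 in replicate 2, rank 331 of 27733. It stood at the 99.9th percentile in both control lists and at the 96.8th and 98.8th in the shPU.1 lists. These ranks come from lists of different length and are given side by side, not as a change. It came second in control replicate 2, after the upstream element, and first in the other 3.

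The midpoints of its 4 peaks lay within 54.5 bp of each other, although the peaks were 719 to 1687 bp wide. Over the 7336 regions with exactly 1 peak in each macrophage list, the median spread of midpoints was 193.75 bp, and 2.96% had a spread as small as this one. Those regions were of all ranks, so the share does not tell whether the spread is unusual for a region ranked this high. Which gene, if any, lies under this peak in mm9 was not determined here.

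The upstream element was covered by a cluster of PU.1 peaks rather than by 1 peak. The merged region, called the element in what follows, ran from 90920485 to 90927276, 6792 bp and -15.5 to -8.7 kb from the promoter. Only 0.0282% of all 53107 merged regions were at least as wide. In control replicate 2 it was a single peak of 6612 bp, the fourth widest of that list, with a score of 2637 and rank 24 of 36759. That peak spanned 5 separate peaks of control replicate 1. Just 2 of the 36759 peaks of control replicate 2, this one included, spanned 5 or more.

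Control replicate 1 resolved the element into 5 peaks. The highest, at -12.6 kb (90923004 to 90923764), scored 716 and stood at the 98.8th percentile. Those at -11.3 and -14.6 kb scored 397 and 321, at the 94.6th and 91.6th percentiles. The peak at -13.5 kb (90922062 to 90922930), whose edge lies closest to the nominal position of the element, scored 190.3, at the 79.9th percentile. The last, at -9.4 kb, scored 86.8, at the 45.3rd percentile. The strongest peak of the cluster was thus not the one nearest the nominal position. That position is approximate, so which of these peaks lies on the element itself was not determined.

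After induction of the hairpin this merged region still held peaks in both libraries, over a shorter span. The nominal position of the element, 90922000, lay within the wide peaks of both number 2 lists and between peaks in both number 1 lists. Whether the regulatory element itself held a peak in shPU.1 replicate 1 was thus not determined. In shPU.1 replicate 2 the merged region was a peak of 5000 bp, rank 30 of 27733 by width, with a score of 629 at the 93.2nd percentile. It ended at -10.5 kb, so the control peak at -9.4 kb fell outside it. In shPU.1 replicate 1 the element held 3 peaks, at -14.8, -12.6 and -11.1 kb, which scored 232, 99.0 and 98.5 and stood at the 93.0th, 67.3rd and 67.1st percentiles. Of the 5 control replicate 1 peaks, those at -13.5 and -9.4 kb had no counterpart in shPU.1 replicate 1. The peak at -9.4 kb was the only one of the 5 found in neither shPU.1 library.

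The order of peaks within the element differed between the number 1 libraries. In control replicate 1 the peak at -12.6 kb outscored the one at -14.6 kb (716 against 321). In shPU.1 replicate 1 the peak at -14.8 kb, which overlapped the latter by 677 bp, outscored the one at -12.6 kb (232 against 99.0). The midpoints at -12.6 kb were 18 bp apart in these lists. Among 239 pairs of peaks within 2 kb of each other, each matched to its own shPU.1 replicate 1 peak and differing at least 2-fold in score in control replicate 1, 46 (19.2%) had their order turned. This comparison was chosen after the values were seen, rests on 1 library a group, and has no counterpart in the number 2 lists, where the element is 1 peak.

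**Figure D2:**
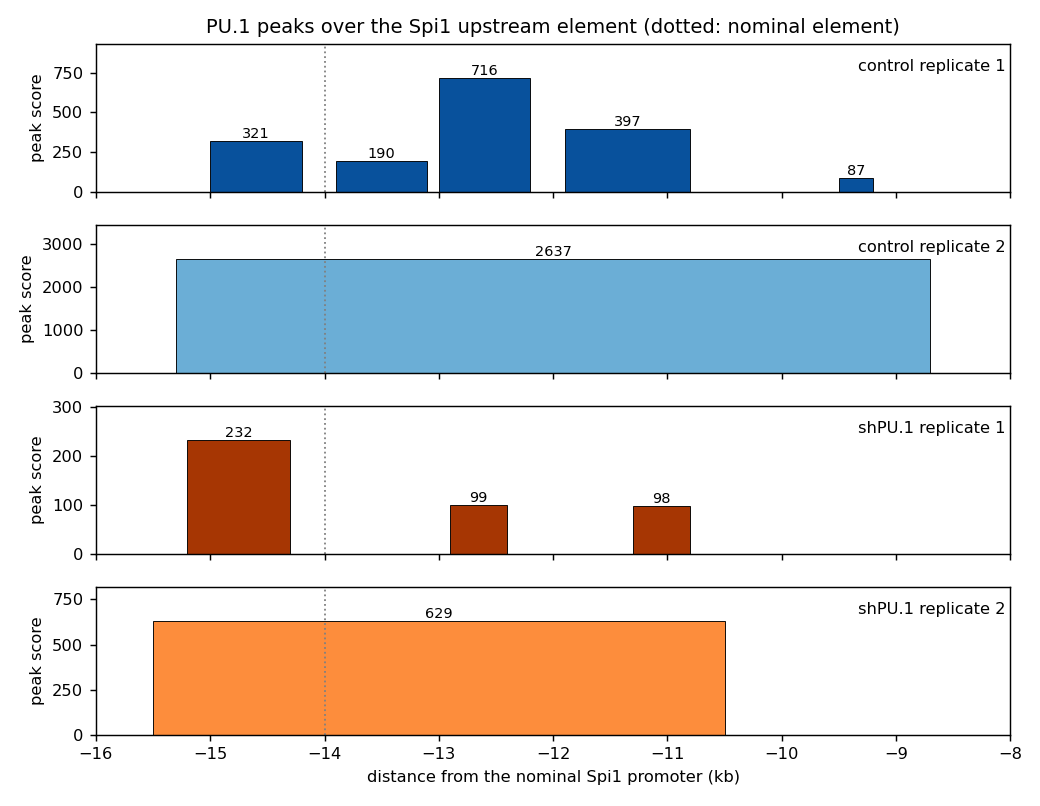
Peaks over the Spi1 upstream element in the 4 macrophage lists. The x axis is the distance in kb from the nominal promoter, bar width is peak width and bar height is the peak score on a scale of its own for each list. Control replicate 1 peaks highest at -12.6 kb (716) and shPU.1 replicate 1 at -14.8 kb (232), while both number 2 lists show 1 wide peak.

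The promoter region (90936018 to 90940181, 0.0 to +4.2 kb) had a modest peak in both control libraries. It begins just past the nominal position 90936000, which no peak covered. That position is approximate, so whether these peaks lie on the promoter itself was not determined. In control replicate 1 the peak was 1000 bp wide (+0.5 to +1.5 kb) and scored 92.0, at the 48.3rd percentile. In control replicate 2 it was 4164 bp wide, rank 40 of 36759 by width, and scored 254, at the 76.5th percentile. Within each control list the promoter peak scored below the highest peaks at -25.2 kb and over the upstream element.

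Neither shPU.1 library had a peak in the promoter region. For the genome as a whole, a control region is one found in both control lists, and it counts as kept when found in each shPU.1 list, partial when found in 1 of them and lost when found in neither. Of these regions, 40.0% of 21680 were kept, 31.0% partial and 29.1% lost. In the Spi1 window 2 of 4 control regions were kept, 1 was partial and 1, the promoter region, was lost. With 4 regions, nothing particular to the locus can be read from these counts.

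The absence of the promoter region from the shPU.1 lists was not unusual for a region of its rank. Its mean percentile in the control lists was 62.4. Of the 2775 control regions within 5 percentile points of it, 34.2% were kept, 38.4% partial and 27.4% lost. Among the 37 control regions with a control replicate 2 peak at least as wide as that at the promoter, 64.9% were kept and 13.5% lost. At a minimum score of 100, or with all lists limited to their 15122 highest peaks, the peak of control replicate 1 dropped out. The promoter region then had a peak in control replicate 2 alone. When peaks were cut down to their middle 200 bp, the pieces of control replicates 1 and 2 (90936944 to 90937143 and 90938000 to 90938199) did not meet. The place of the promoter region among the control regions, and so its loss, thus also rests on joining a wide peak. No peak in the promoter region means a score below 50 in that list, which at unknown depth is not absence of PU.1.

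Both upstream regions were kept, as were most regions of their rank. For the element this rests on joining its wide peaks: when peaks were cut down to their middle 200 bp, no piece of it was shared by both controls, and the region at -25.2 kb was the 1 kept region of the window. The region at -25.2 kb had a mean control percentile of 99.9, with 0.101% of control regions ranked higher, and the element one of 99.4, with 0.660% ranked higher. Around these ranks, 89.5% of 1319 and 88.7% of 1472 control regions were kept, and 0.455% and 0.883% were lost. The plot of fate by rank places the 4 Spi1 control regions on this background.

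**Figure D3:**
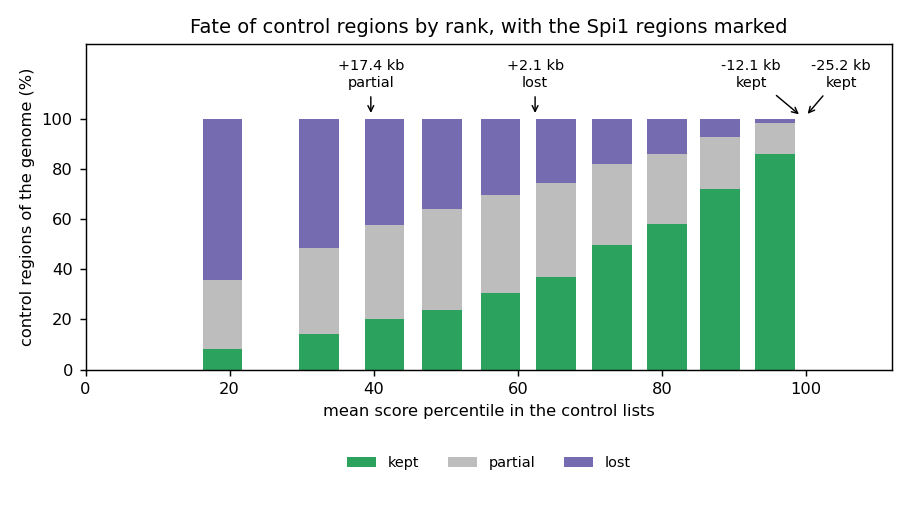
Fate of control regions by rank. The x axis is the mean score percentile in the control lists, each bar is a decile of all 21680 control regions at its median rank, and colours give the percent kept, partial and lost. Arrows mark the Spi1 control regions. The 2 upstream regions sit above the highest bar's median, the promoter region at 62.4 and the +17.4 kb region at 39.6.

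Downstream of the promoter, the region at +17.4 kb (90952678 to 90954201) was the partial one. Control replicate 1 had a peak of 304 bp that scored 55.1, at percentile 8.14. Control replicate 2 had one of 1374 bp that scored 211, at the 71.2nd percentile. In shPU.1 replicate 1 a peak of 432 bp scored 143, at the 82.3rd percentile, and shPU.1 replicate 2 had none. The shPU.1 replicate 1 peak outscored the 2 weaker peaks over the upstream element in the same list.

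The peaks of control replicate 1 and shPU.1 replicate 1 at +17.4 kb did not touch: 335 bp lay between them, and the wider peak of control replicate 2 joined them. The 2 number 1 lists therefore did not mark the same DNA there. A peak in shPU.1 replicate 1 and not in replicate 2 was the less common kind of partial region, 749 of 6713 (11.2%). The list of shPU.1 replicate 1 is also the shorter of these lists, with 15122 peaks against 27733, and the share is not corrected for that.

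The other 2 regions were weak and each was found in 1 control library. The peak at -6.6 kb (90929250 to 90929578) scored 57.2 in control replicate 1, at percentile 11.2. The peak at +10.7 kb (90946404 to 90947071) scored 74.4 in control replicate 2, at the 25.4th percentile. Both scores are near the lowest that the lists hold, 50. No region of the window was found only under the hairpin.

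**Figure D4:**
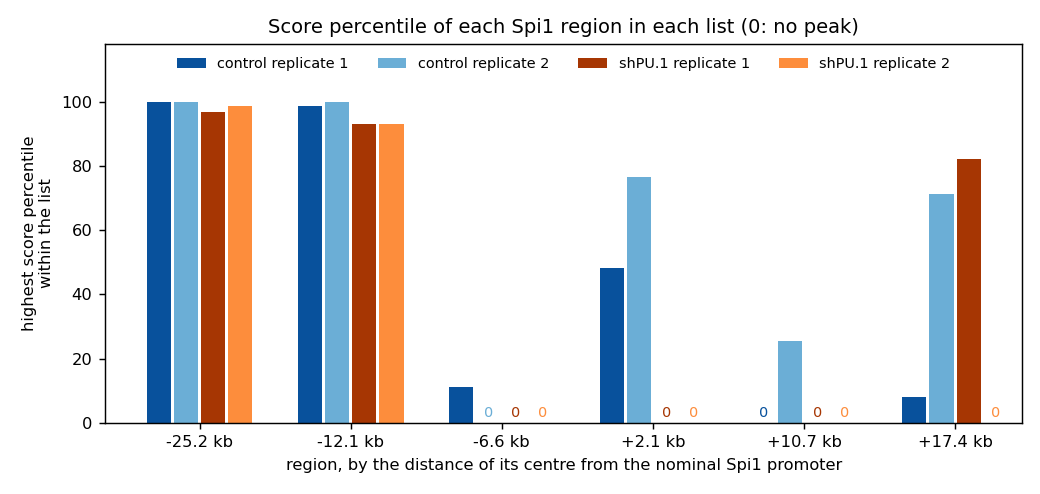
Score percentile of each Spi1 region in each macrophage list. The x axis gives the region's centre in kb from the nominal promoter, bars are the highest percentile of its peaks in that list, and 0 marks no peak. The 2 upstream regions stand above 90 in all 4 lists, and the promoter region (+2.1 kb) has bars for the controls alone.

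Counted peak by peak, without merging the lists, shPU.1 replicate 1 overlapped 4 of the 9 control replicate 1 peaks, against 33.2% of all peaks of that list. shPU.1 replicate 2 overlapped 5 of the 9, against 56.2%. Of the 5 control replicate 2 peaks, shPU.1 replicate 1 overlapped 3, against 29.9% of that list, and shPU.1 replicate 2 overlapped 2, against 53.9%. The controls overlapped each other more fully: replicate 2 overlapped 8 of the 9 peaks of replicate 1, and replicate 1 overlapped 4 of the 5 of replicate 2, against 78.6% and 60.0% of all peaks. Among control replicate 1 peaks, 3 overlapped a control replicate 2 peak and no shPU.1 peak. They lay at -9.4 kb, in the promoter region and at +16.8 kb.

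The window held 7 peaks on average in the control libraries (9 and 5) and 3.5 in the shPU.1 libraries (5 and 2), a log2 ratio of -1.0. Over the whole lists the same ratio was -0.64, since the shPU.1 lists are shorter. Per 1000 peaks of the list, the window held 0.300 peaks in control replicate 1 and 0.331 in shPU.1 replicate 1, so the direction turned in the number 1 libraries. In the number 2 libraries it held 0.136 in the control and 0.0721 under the hairpin. With all lists limited to 15122 peaks, the window held 5 and 4 peaks in the controls and 5 and 2 in the shPU.1 libraries, a log2 ratio of -0.36. An exact two-sided permutation test over the 4 libraries gave p = 0.67 for the lists as deposited, and no smaller p at equal length. Here 2 against 2 cannot go below 0.33. In the lists as deposited the groups met at 5 peaks. The ratio was between -1.81 and -0.49 when 1 library was left out (-1.81 without shPU.1 replicate 1, -0.49 without shPU.1 replicate 2, -0.51 without control replicate 1). Peak number also depends on how sites are joined. The peaks covered 6653 and 14444 bp in the control libraries, at mean widths of 739 and 2889 bp. They covered 3081 and 6687 bp in the shPU.1 libraries, at mean widths of 616 and 3344 bp. In each replicate number the shPU.1 library covered less of the window than the control. The shPU.1 lists are also shorter as a whole, with 15122 against 30026 peaks for number 1 and 27733 against 36759 for number 2. Coverage over the whole lists was not computed, so the lower coverage cannot be read as particular to Spi1.

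PU.1 peaks were dense at Spi1 in the number 1 lists, which split the element into several peaks, and less so in the number 2 lists. When the genome was cut into 37739 tiles of 70 kb, control replicate 1 had 0.796 peaks per tile on average, and 0.339% of tiles held 9 or more. For the other libraries, 5.31% of tiles held at least the 5 peaks of control replicate 2, 0.445% at least the 5 of shPU.1 replicate 1 and 18.9% at least the 2 of shPU.1 replicate 2. In the 390 tiles with a control mean of at least 7 peaks, the median log2 ratio of shPU.1 to control, with 0.5 added to each mean, was -0.91. The Spi1 window also gave -0.91 on the same scale, which like the tiles' value is not corrected for the length of the lists.

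The comparison with chromatin assembled in vitro asked where PU.1 in extract binds the same DNA without the cell's own chromatin. None of the 6 Spi1 regions held a peak of the in vitro list, against 22.3% of all 53107 regions. None of the 4 control regions did, against 27.6% of all control regions. At the ranks of the 2 upstream regions, 44.7% and 44.8% of control regions held an in vitro peak. The highest-scoring macrophage regions of the locus thus had no counterpart in the in vitro list, as was the case for the larger part of regions of like rank.

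The whole window lay in a gap of 110.0 kb between neighbouring in vitro peaks. In the authors' deposited table the median gap was 27.7 kb, and 7.83% of 57490 gaps were at least as long. Gaps were counted without weighting by length, so this is not the share of places in the genome within so long a gap. Of all 70 kb tiles 26.5% held no in vitro peak, but of the 390 tiles dense in control peaks 34 (8.72%) held none. The in vitro list comes from 1 pair of libraries with no replicate and unknown depth, so the lack of a peak at Spi1 is a score below 50 there, not a measured absence of binding.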

How the data were processed

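PU.1 binding was measured by chromatin immunoprecipitation and sequencing. Per the submitters' processing notes, the authors used Bowtie 0.12.7 and MACS 1.4 on build mm9, with parameters not given in the sources used here. Each deposited file is a BED list with a peak score in column 5, by MACS convention 10 times the negative log10 of the p-value and not corrected for depth. Macrophage lists were called per library against an input, the in vitro list on the IgG-depleted library against the PU.1-depleted one, per the deposited files' names.

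Coordinates were converted to count from 1. Peaks of the 4 macrophage lists sharing at least 1 bp were merged, and in vitro overlap needed 1 bp. A region's percentile in a list is that of its highest peak, and its rank the mean over both control lists. Tiles count peaks by midpoint. Code (Python 3.11.15, pandas 2.3.3, scipy 1.17.1) was tested on simulated lists. All peaks in the window are described. The window, members and comparisons were chosen with earlier results of these data known.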

Additional observations from a re-analysis of the deposited data

How the results depend on the processing

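The log2 ratio of peak numbers in the Spi1 window (-1.0) stayed below 0 under every alternative run, with -0.85 at a score of at least 100, -0.36 with lists of equal length, -1.17 with the window widened by 30 kb on each side and -1.81 to -0.49 when 1 library was left out. Over the whole lists the ratio was already -0.64, and only the run with lists of equal length takes out that difference. In that run the number 1 libraries held 5 peaks each, and the number 2 libraries held 4 in the control and 2 under the hairpin. Per 1000 peaks of the list, the number 1 libraries went the other way (0.300 in the control, 0.331 under the hairpin). The replicate number taken as a block gave -1.08 (-0.85 for number 1 and -1.32 for number 2). No label ties a replicate number to a mouse, litter or date, and differences between numbers correlated between the groups at 0.105 over percentiles of 8666 kept regions and 0.032 over presence. The 4 control regions of the window became 2 at a score of at least 100, 2 with lists of equal length and 1 with peaks trimmed to their central 200 bp, and numbered 4 to 6 when 1 library was left out. The 2 kept regions became 1 with trimmed peaks, the one at -25.2 kb, since trimming cuts wide peaks over the upstream element to places that do not meet. They numbered 2 to 3 when 1 library was left out. The 1 lost region became 0 at a score of at least 100, 0 with lists of equal length and 0 with trimmed peaks. It became 2 in the widened window and 1 to 4 when 1 library was left out. By construction, a control region then needs 1 control list, or a lost region must be missing from 1 shPU.1 list. The count of regions with an in vitro peak was 0 throughout, except for 1 in the widened window. Depth is unknown for every list, which limits every statement about a missing peak.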

Other observations

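Of the 4 regions within 40 kb of either side of the Spi1 window, 2 held an in vitro peak, against 22.3% of all regions. With 4 regions, no contrast with the window can be read from this count. On chromosome 2 at 90891649 to 90892788, centred at -43.8 kb, control replicate 2 had a peak at the 16.9th percentile and shPU.1 replicate 2 one at the 71.2nd, and neither number 1 library had one. The authors' deposited table lists an in vitro peak there (90891827 to 90892748) with a score of 91.93. At 91002703 to 91003789, +67.2 kb from the promoter, all 4 macrophage libraries had a peak, at the 49.6th and 85.7th percentiles in the controls and the 0.896th and 84.8th in the shPU.1 libraries. The authors' deposited table gives the in vitro peak on this site a score of 161.93.

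The other flanking sites were a region at 90971792 to 90973029 (+36.4 kb), found in both control libraries at the 22.6th and 30.0th percentiles and in neither shPU.1 library, and one at 90893633 to 90894692 (-41.8 kb), found in control replicate 2 alone at the 44.7th percentile. Neither held an in vitro peak. These values are a description of 4 regions and were not tested.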
